A study of Mus musculus with 2 samples.

Results

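Semaphorins, plexins and neuropilins form one signalling family of ligands, receptors and co-receptors. The members were chosen by gene symbol alone: Sema3 to Sema7 followed by a letter, Plxna to Plxnd with or without a number, and Nrp1 and Nrp2. This rule found 31 of the 32285 genes in the matrices, namely 20 semaphorins, 9 plexins and 2 neuropilins. Their RNA was followed across cell classes of the thalamus in 2 mice. Both were untreated wildtype C57BL/6J animals aged 2 months, and each gave 1 library of dissociated cells on the 10x 3' version 3 chemistry. The tissue had been digested with papain, protease and dispase, and class sizes are those of the cells recovered. Both animals were treated alike, so every comparison was between cell classes, with the mouse as replicate and block.

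Semaphorins are secreted or membrane-bound proteins that share a sema domain and steer growing axons, migrating cells and vessel sprouts. Class 3 semaphorins are secreted and mostly bind a neuropilin, which has a short cytoplasmic tail and passes the signal on through an A-type plexin. Sema3e is known to bind Plxnd1 without a neuropilin. Class 4, 5 and 6 semaphorins span the membrane and mostly bind plexins directly, and Sema7a, the class 7 member, is held by a lipid anchor and binds Plxnc1 and integrins. Plexins act on small GTPases through an intracellular GTPase-activating domain. In the adult brain the family is known for synapse and axon maintenance, for control of oligodendrocyte precursors and for vascular and immune signalling. Neuropilins also serve as co-receptors for vascular endothelial growth factors.

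After filtering, 6185 cells of mouse 1 and 9176 cells of mouse 2 were kept, with a median of 17998 and 14762 UMIs (unique molecular identifiers, counts of captured transcripts) per cell. The libraries held 7889 and 12107 barcodes, of which 36 occurred in both, and 15 of these were kept in both. Classes were named from marker genes after clustering in which the 31 members and 36 partner genes of the pathway took no part. They are called neuron-like, astrocyte-like and so on. Because classes were built from other genes of the same cells, p-values measure only how far class sums separated beyond a residual spread. That spread is what the mouse block left between the 2 mice, estimated over all classes of a fit together. It is not the spread of the compared classes alone. Cells per class were unequal between mice, for example 210 and 1610 glutamatergic neuron-like cells and 1030 and 364 astrocyte-like cells. Small tested classes were fibroblast-like (21 and 48), GABAergic neuron-like (48 and 63), border macrophage-like (112 and 50) and committed precursor-like (46 and 144). The 9 markers of mature oligodendrocytes summed to 20439 and 22187 CPM in committed precursor-like cells, against 39262 and 54785 CPM in oligodendrocyte-like cells. Levels are in CPM, the UMIs of a gene in the summed class scaled to a fixed total, and are given for mouse 1 and then mouse 2. In the 98 pairs of member and class at 50 CPM or more the mice differed by a median of 1.24-fold, and in 5 of them by 2-fold or more. A gene counts as called, higher or lower, when its p after Benjamini-Hochberg adjustment over all genes tested was under 0.05 and the fitted levels differed by 1 or more on the log2 scale, and ± after a log2 fold change gives its standard error. Where 1 mouse or an alternative setting moved a fold by more than 1.5 times, the log2 differences of each mouse alone (with a prior count of 2) or the value under that setting stand beside it. Low-count filtering left 30 of the 31 members testable. Sema3b, at 3.4 and 2.24 CPM in the fibroblast-like class where it was highest, was not tested.

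Members were spread over the tissue rather than gathered in one class. The class with the highest mean level was endothelial-like for 5 members, committed precursor-like for 5, precursor-like, habenular and glutamatergic neuron-like for 3 each, and astrocyte-like, microglia-like, pericyte-like, smooth muscle-like and fibroblast-like for 2 each. Nrp1 was highest in border macrophage-like cells and Sema4f in neuron-like cells that the transmitter markers did not resolve. The highest class was the same in each mouse for 24 members, and 13 members stood at least 2-fold above the next class. For 5 genes the gap was at least 5-fold, namely the ligands Sema3c, Sema3e, Sema3g and Sema7a and the co-receptor Nrp2. Semaphorins reached 10 CPM in both mice in a median of 4.5 of 14 classes, plexins in 8 and neuropilins in 12. Summed over the 20 ligands, the level was highest in committed precursor-like cells, at 3359 ± 392 CPM (SD, n = 2). Microglia-like and border macrophage-like cells showed the reverse balance. Microglia-like cells had a semaphorin sum of 362 ± 56.8 CPM and a plexin sum of 767 ± 130.3 CPM (SD, n = 2), and in border macrophage-like cells the sums were 327 ± 29.8 CPM and 496 ± 160.0 CPM.

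**Figure D1:**
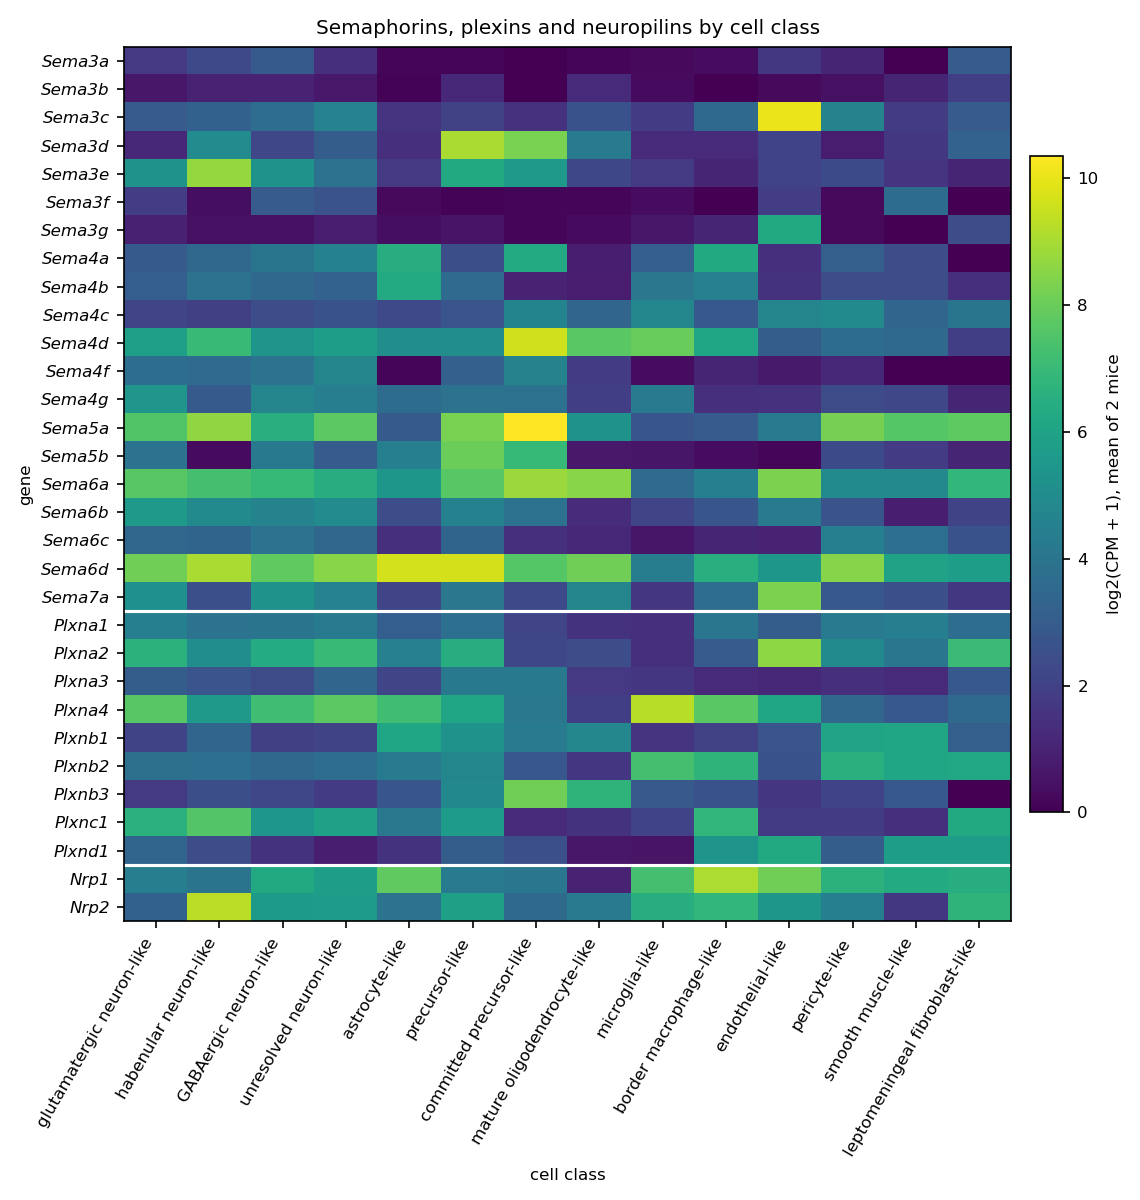
Mean level of each member over the 2 mice, as log2(CPM + 1), with members in rows and the 14 tested cell classes in columns. Sema3c stands out in the endothelial column, Nrp2 and Sema3e in the habenular column, Plxna4 in the microglia column, and Sema5a and Sema4d in the committed precursor column.

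The secreted ligands Sema3d, Sema3a, Sema3e and Sema3c are neighbours among the members on chromosome 5 of GRCm38, all on the plus strand. Sema3d spans chr5:12383385-12588948, Sema3a chr5:13125414-13602565, Sema3e chr5:14025276-14256689 and Sema3c chr5:17574281-17730268. The gaps between neighbours are 536 kb, 423 kb and 3.32 Mb. Sema3d was highest in precursor-like, Sema3e in habenular neuron-like and Sema3c in endothelial-like cells. Sema3g, the other ligand that stood out in endothelial-like cells, lies on chromosome 14 (chr14:31217860-31230352, plus strand). The sequences upstream of these ligands are shown because those on chromosome 5 lie near each other and had different highest classes, while Sema3c and Sema3g lie on different chromosomes and had the same one. Sema3a is left out because it was low throughout. Each is the 250 bases before the RefSeq start in GRCm38.p6 on the plus strand, 5′ to 3′, in lower case, with matches to 2 of 3 searched motifs in capitals: ETS-type (AGGAAG, or CTTCCT on the other strand) and SOX-type (ACAAAG, or CTTTGT). The third motif, a TATA box (TATAAA), had no match in these windows.
Sema3d: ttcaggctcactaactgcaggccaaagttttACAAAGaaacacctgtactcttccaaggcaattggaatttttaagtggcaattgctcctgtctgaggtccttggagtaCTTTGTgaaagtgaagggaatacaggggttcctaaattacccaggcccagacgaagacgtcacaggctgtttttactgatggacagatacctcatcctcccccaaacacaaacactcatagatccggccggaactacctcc
Sema3e: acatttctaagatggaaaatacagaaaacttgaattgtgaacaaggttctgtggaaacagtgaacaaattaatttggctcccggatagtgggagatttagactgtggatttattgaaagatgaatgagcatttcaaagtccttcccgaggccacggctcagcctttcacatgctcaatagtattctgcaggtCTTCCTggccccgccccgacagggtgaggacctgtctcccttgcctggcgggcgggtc
Sema3c: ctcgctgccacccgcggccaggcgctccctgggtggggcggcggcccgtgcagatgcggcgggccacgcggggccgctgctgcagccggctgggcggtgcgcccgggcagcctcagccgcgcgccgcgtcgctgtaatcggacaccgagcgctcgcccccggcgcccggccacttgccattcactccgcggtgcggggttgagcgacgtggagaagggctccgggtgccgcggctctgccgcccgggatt
Sema3g: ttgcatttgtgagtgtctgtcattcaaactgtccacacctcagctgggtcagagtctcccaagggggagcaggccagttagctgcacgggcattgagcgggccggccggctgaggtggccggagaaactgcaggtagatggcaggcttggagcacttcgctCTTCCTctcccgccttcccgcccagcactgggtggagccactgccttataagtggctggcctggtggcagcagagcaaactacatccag

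The Sema3d window (chr5:12382916-12383165) holds 46.8% G and C bases, 4 CpG dinucleotides and 2 SOX-type matches. The Sema3e window (chr5:14025026-14025275) holds 48% G and C, 7 CpGs and 1 ETS-type match. The Sema3c window (chr5:17574566-17574815) differs from both of its neighbours in composition, with 78.4% G and C, 39 CpGs and none of the 3 motifs. Sema3g (chr14:31217623-31217872) has 60.4% G and C, 8 CpGs and 1 ETS-type match, so its window differs from that of Sema3c too. Whether the windows bear on the endothelial-like pattern of Sema3c and Sema3g was not tested. Across the 26 members in the RefSeq table (37 windows), the median was 64% G and C and 13 CpGs, against 52.4% and 6 over all 32851 windows. The ETS-type letters occurred in 15 of the 37 member windows, or 40.5%, and in 29.5% of all windows. For the SOX-type letters the numbers were 5 of 37, or 13.5%, and 16.5%. TATAAA occurred in 0 of 37 member windows and in 12.4% of all. The Sema3c window lies inside the annotated span of the gene, and the Sema3g window ends within it, because the RefSeq start used lies downstream of the first annotated start. A match describes letters only and is no evidence of a bound factor.

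Among class 3 ligands, Sema3c had the sharpest pattern. Its protein attracts or repels axons and endothelial cells through neuropilins and Plxnd1. Endothelial-like cells held 983 and 1142 CPM and the next class, pericyte-like, 5.62 and 41.7 CPM, so that endothelial-like cells made up 90.8% of the summed class means. The 8 endothelial markers summed to 157 and 419.9 CPM in pericyte-like cells, again with the higher value in mouse 2, against 17424 and 17683 CPM in endothelial-like cells. The part of these transcripts in the pericyte-like level was not tested. Sema3g, a ligand that prefers Nrp2, stood at 78.5 and 76.3 CPM in endothelial-like cells and 0 and 8.97 CPM in fibroblast-like cells. In neutrophil-like cells, too few to test, it held 66.9 and 0 CPM, and there the endothelial markers summed to 3273 CPM in mouse 1 and 0 in mouse 2. Sema3e reached 394 and 439 CPM in habenular neuron-like cells, with 74.6 and 78.6 CPM in precursor-like and 38.2 and 36.7 CPM in glutamatergic neuron-like cells. For Sema3d the order was precursor-like (436 and 618 CPM), committed precursor-like (239 and 382 CPM), then oligodendrocyte-like (16.7 and 20.1 CPM), with no overlap between mice from one stage to the next. The remaining secreted ligands were scarce. Sema3a, the classical collapse signal for growth cones, Sema3f, a ligand of Nrp2, and Sema3b never reached 10 CPM in both mice in any class. The highest mean of Sema3a came from 1 mouse, with 13.6 and 0 CPM in fibroblast-like cells, and Sema3f held 15.4 and 7.89 CPM in smooth muscle-like and 5.24 and 8.54 CPM in GABAergic neuron-like cells, which overlap.

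**Figure D2:**
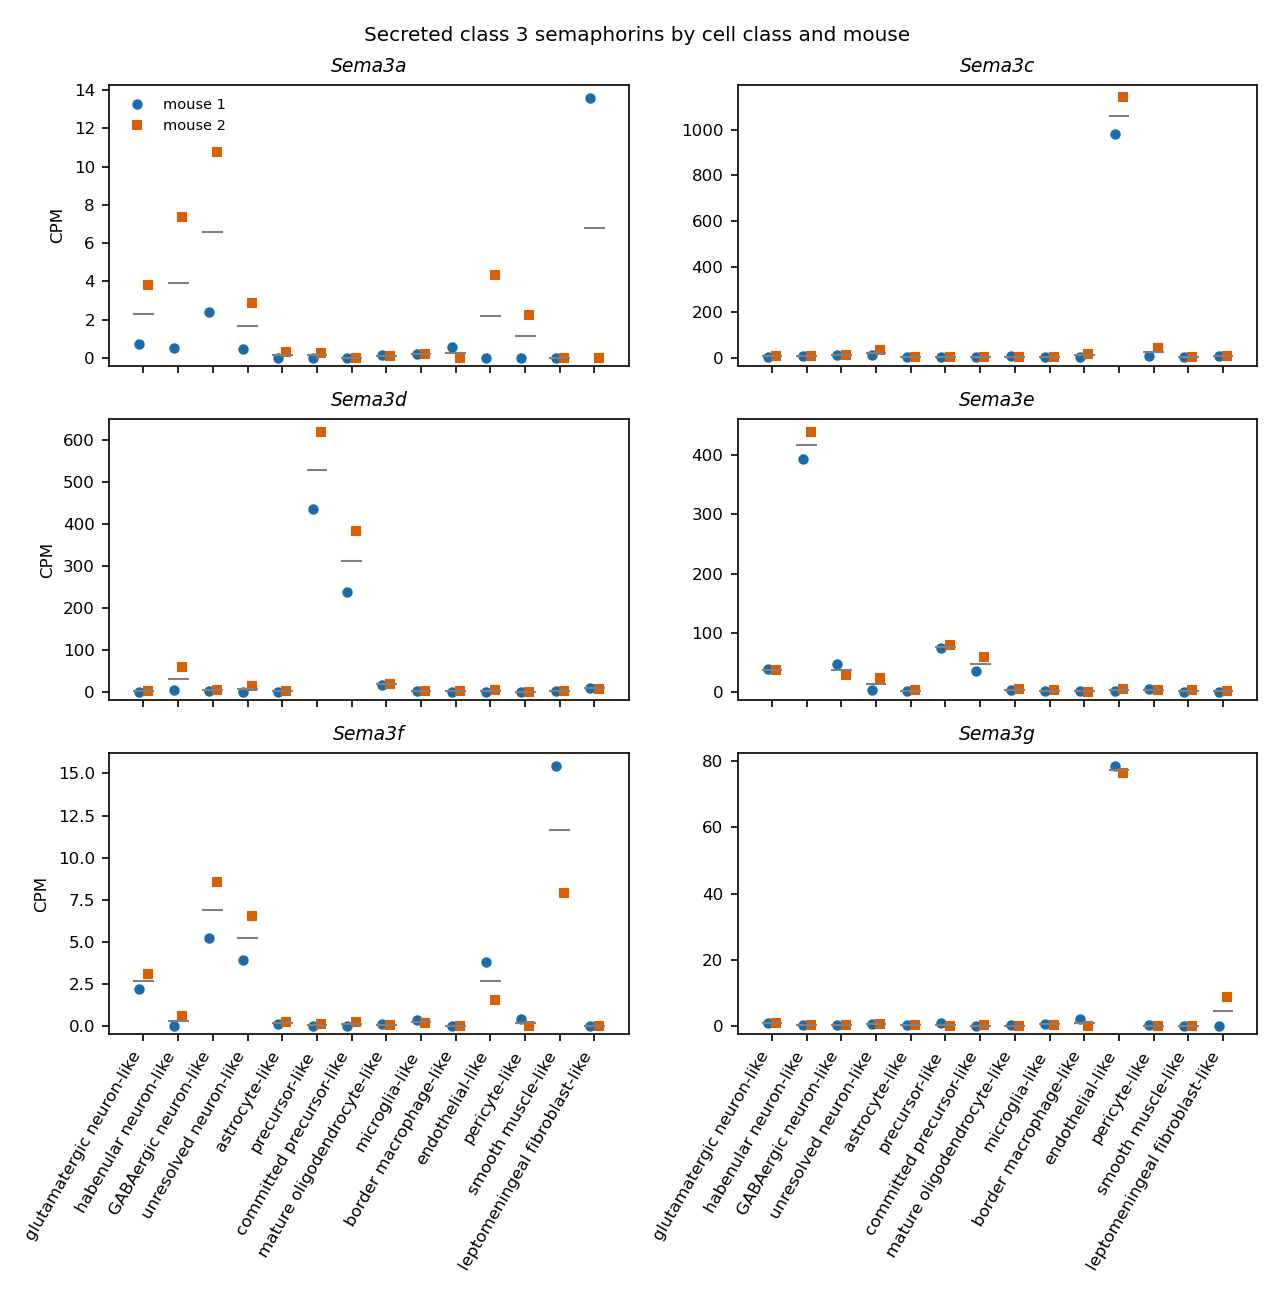
CPM of Sema3a, Sema3c, Sema3d, Sema3e, Sema3f and Sema3g in each of 14 cell classes, with 1 point per mouse and a grey line at the mean. Sema3c and Sema3g are high in endothelial, Sema3e in habenular neuron and Sema3d in precursor cells in both mice, while Sema3a and Sema3f stay low throughout.

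Shares of cells with at least 1 UMI followed the same order once each cell was thinned to 3000 UMIs and shallower cells were left out. Sema3c was found in 85.2% and 84.2% of endothelial-like cells (94.8% and 88.2% unthinned). In microglia-like cells, which should lack it, the share was 0.611% and 0.592% (4.36% and 1.56% unthinned). Median depths were 12879 and 5006 UMIs in endothelial-like and 12974.5 and 9479 UMIs in microglia-like cells. Sema3d was found in 75% and 78.8% of thinned precursor-like cells (95.1% and 99% unthinned), whose median depth was 13787.5 and 14961 UMIs, and in 0.122% and 0.592% of thinned microglia-like cells (0.847% and 1.36% unthinned). Nrp2 reached 89.2% and 73.9% of thinned habenular neuron-like cells (100% and 99.2% unthinned), with median depths of 50849.5 and 28132 UMIs. In glutamatergic neuron-like cells the share was 2.4% and 2.32% (30% and 15% unthinned), at median depths of 86175 and 43816.5 UMIs. In each of these leading classes most thinned cells held the gene.

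Class 4 semaphorins had 3 members highest in glia-like classes and 3 elsewhere. Sema4d, the ligand of Plxnb1 and, on immune cells, of CD72, stood at 819.7 and 735 CPM in committed precursor-like cells, 205 and 280.2 CPM in microglia-like and 212 and 199 CPM in oligodendrocyte-like cells. Sema4a, known from T cell and endothelial signalling, held 97 and 74.3 CPM in astrocyte-like and 76 and 84.3 CPM in committed precursor-like cells, and the mice overlapped between these classes. Sema4b was highest in astrocyte-like cells at 87.4 and 72.4 CPM, followed by border macrophage-like cells at 31.7 and 11.2 CPM. The Plxnb2 ligands Sema4c and Sema4g were low but differed in place. Sema4c was nearly level between pericyte-like (25.7 and 32.8 CPM) and microglia-like cells (26.3 and 25.5 CPM), and Sema4g was highest in glutamatergic neuron-like cells at 47.4 and 34.6 CPM. Sema4f held 25.2 and 25.4 CPM in the unresolved neuron-like class and 22.9 and 23.9 CPM in committed precursor-like cells.

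Both class 5 semaphorins and 2 of the 4 class 6 semaphorins had their highest class in the oligodendrocyte lineage. Sema5a and Sema5b carry thrombospondin repeats outside the membrane, and Sema5a is a ligand of Plxnb3. Sema5a peaked in committed precursor-like cells at 1257 and 1348 CPM, with habenular neuron-like cells next at 499 and 302 CPM. Sema5b was highest a step earlier, at 274 and 238 CPM in precursor-like cells, and the committed precursor-like values of 61.5 and 179 CPM differed widely between mice. Class 6 semaphorins act mainly through A-type plexins. Sema6a, which binds Plxna2 and Plxna4, was high in committed precursor-like (378 and 501 CPM) and oligodendrocyte-like cells (368 and 355 CPM). Sema6d, a ligand of Plxna1, was the most widespread ligand and reached 10 CPM in both mice in all 14 classes. Its levels in precursor-like (762 and 869 CPM) and astrocyte-like cells (738 and 859 CPM) overlapped between mice. Sema6b was highest in glutamatergic neuron-like cells at 52 and 39.9 CPM and Sema6c in pericyte-like cells at 18.1 and 24.6 CPM. Sema7a held 319 and 314 CPM in endothelial-like cells, with GABAergic neuron-like cells next at 53.6 and 24.9 CPM.

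Among receptors, the A-type plexins Plxna4 and Plxna2 had different leading classes, each the same in both mice. Plxna4, a co-receptor for secreted and receptor for class 6 ligands, stood at 517 and 672 CPM in microglia-like cells, above 174 and 251 CPM in the unresolved neuron-like class. Plxna2 was highest in endothelial-like cells at 284 and 488 CPM, then in fibroblast-like cells at 105 and 155 CPM. Plxna1 and Plxna3 were low, and their leading classes changed with the mouse. Plxna1 was at 23.6 and 18.9 CPM in glutamatergic neuron-like cells, and Plxna3 at 14 and 20.7 CPM in committed precursor-like and 17.9 and 16.7 CPM in precursor-like cells. The B-type plexins bind class 4 and 5 ligands and were split among vessel wall, immune and lineage cells. Plxnb1 was level between smooth muscle-like (57.4 and 81.7 CPM) and astrocyte-like cells (65.3 and 69.4 CPM), and Plxnb2 was highest in microglia-like cells (143 and 166 CPM) ahead of border macrophage-like cells (111 and 100.4 CPM). Plxnb3 was highest in the oligodendrocyte lineage, at 300.0 and 242 CPM in committed precursor-like and 104 and 108 CPM in oligodendrocyte-like cells. Plxnb3 and its ligand Sema5a thus had the same highest class. Plxna3, the X-linked neighbour of Plxnb3 at 557 kb, had nearly equal means in committed precursor-like and precursor-like cells (17.4 and 17.3 CPM), which overlapped between mice. Plxnc1 stood at 159 and 222 CPM in habenular neuron-like and 74.7 and 152 CPM in border macrophage-like cells, whereas its ligand Sema7a was highest in endothelial-like cells. Plxnd1, the receptor of Sema3e, held 91.6 and 63.6 CPM in endothelial-like and 45.2 and 63.1 CPM in smooth muscle-like cells.

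Nrp1 and Nrp2, the co-receptors of class 3 ligands, had different leading classes. Nrp1 was highest in border macrophage-like cells (633 and 448 CPM), then endothelial-like (307 and 241 CPM), astrocyte-like (243 and 205 CPM) and microglia-like cells (194 and 119 CPM). Nrp2 was highest in habenular neuron-like cells (704 and 539 CPM), 5.36-fold above border macrophage-like cells (136 and 95.9 CPM) and well above endothelial-like cells (48.9 and 37.1 CPM). In habenular neuron-like cells Nrp1 stood at only 15.3 and 14.7 CPM. Sema3e, a ligand that needs no neuropilin for Plxnd1, was highest in the same class as Nrp2.

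**Figure D3:**
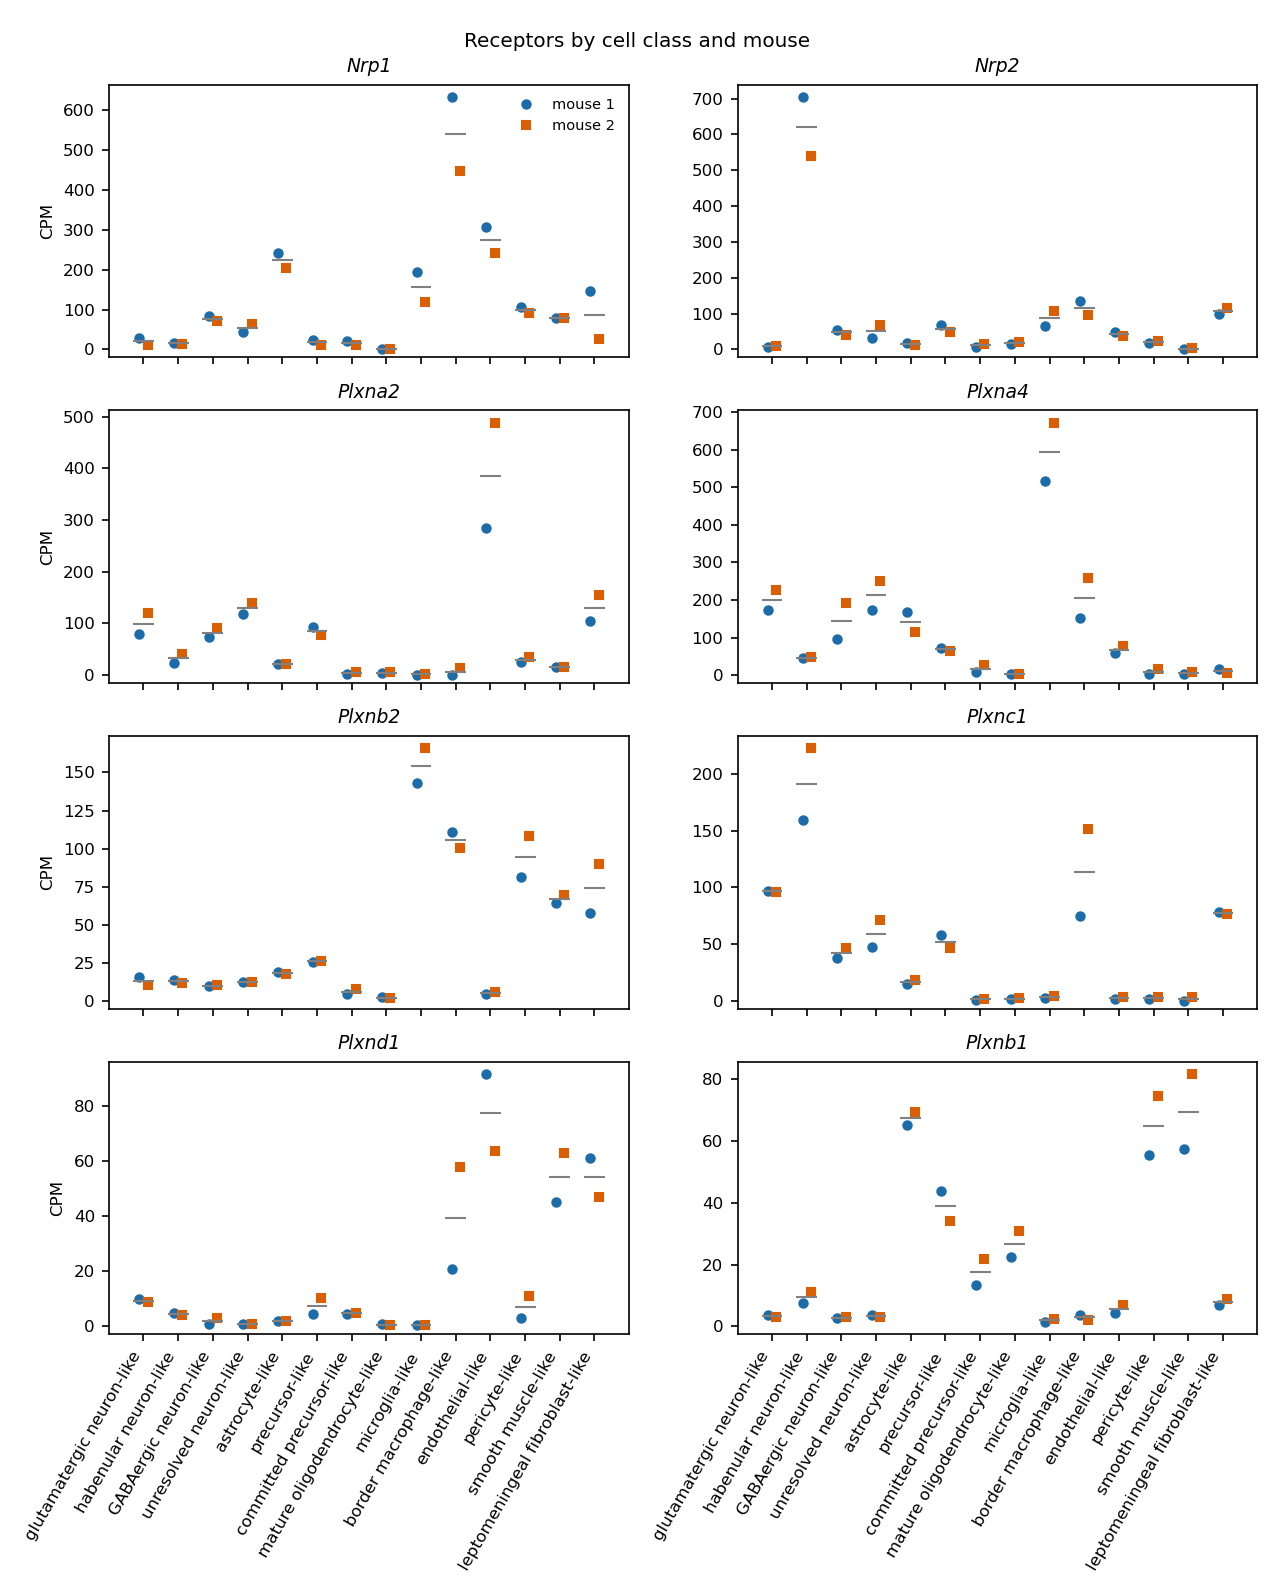
CPM of 6 plexins (Plxna2, Plxna4, Plxnb1, Plxnb2, Plxnc1, Plxnd1) and both neuropilins in each of 14 cell classes, with 1 point per mouse and a grey line at the mean. Nrp2 peaks in habenular neurons, Nrp1 in border macrophages, Plxna4 and Plxnb2 in microglia, and Plxna2 and Plxnd1 in endothelial cells.

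From precursor-like to mature oligodendrocyte-like cells most members fell, while Sema4d, Plxnb3 and 3 others rose. Of 30 members tested, 19 fell and 5 rose in oligodendrocyte-like against precursor-like cells, where 36.9% of all 17232 genes were called. The median log2 fold change of the members was -2.13, against 0.04 over all genes. Sema5b went from 274 and 238 CPM to 0.301 and 0.95 CPM (log2 fold change -8.42 ± 0.64, edgeR adjusted p = 1.9e-09). Sema3d fell from 436 and 618 CPM to 16.7 and 20.1 CPM (-4.31 ± 0.69, edgeR adjusted p = 2.6e-05). The receptor Plxna4 fell from 72.8 and 64.1 CPM to 2.1 and 3.49 CPM (-4.21 ± 0.48, edgeR adjusted p = 3.8e-07). Plxnc1 (-4.39 ± 0.34), Sema3e (-3.95 ± 0.51) and Plxna2 (-3.82 ± 0.39) fell by similar amounts on the log2 scale. The 5 that rose were Sema4d (3.09 ± 0.33), the receptor Plxnb3 (2.46 ± 0.37), Sema6a (1.31 ± 0.33), Sema4c (1.19 ± 0.33) and Sema7a (1.16 ± 0.45). With RLE scaling and with DESeq2 3 members rose and 20 fell, and Sema4c (0.96, adjusted p = 0.024 by edgeR with RLE) and Sema7a (0.92, adjusted p = 0.13) lost the call. Sema7a also lost it without the mouse block, with doublets kept, at both other Leiden resolutions and without the 4 neuron-like clusters with few neuron markers. Single mice gave -8.76 and -7.39 for Sema5b. No mouse overlapped between the stages for any of the 3 genes given per mouse.

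The committed precursor-like stage in between was not a midpoint. Against precursor-like cells, 7 members rose and 12 fell (23.5% of all genes called, member median -0.75 or -0.69 with genes at 0 set to their bound, all-gene median -0.17). Sema4d rose from 43.8 and 24.1 CPM to 819.7 and 735 CPM (log2 fold change 4.55 ± 0.36, edgeR adjusted p = 3e-08). Sema4a rose from 4.47 and 4.61 CPM to 76 and 84.3 CPM (4.18 ± 0.46, edgeR adjusted p = 2.1e-06), and Plxnb3 from 34.4 and 20.4 CPM to 300.0 and 242 CPM (3.35 ± 0.38, edgeR adjusted p = 2.9e-06). Both mice stood above both precursor-like values for all 3. Plxnc1 (-5.27 ± 0.47), Plxna2 (-4.44 ± 0.48) and Sema4b (-3.19 ± 0.56) had the largest falls among members at 10 CPM or more on the higher side. Single mice gave -5.61 and -3.75 for Plxna2 and -4.0 and -2.67 for Sema4b.

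The next step, from committed precursor-like to oligodendrocyte-like cells, lowered several ligands that had just risen. Here 14 members fell and 2 rose (24.2% of all genes called, member median -0.90, all-gene median 0.19). Sema4a fell from 76 and 84.3 CPM to 0.813 and 0.814 CPM (log2 fold change -6.14 ± 0.47, edgeR adjusted p = 7.9e-09). Sema5a fell from 1257 and 1348 CPM to 28.4 and 49.1 CPM (-4.65 ± 0.50, edgeR adjusted p = 3.4e-07). Among the 3 stages both ligands were thus highest in the middle one, since they had also risen from precursor-like cells (Sema5a 2.08 ± 0.44). Sema5b (-7.11 ± 0.61), Sema3d (-3.50 ± 0.67) and Nrp1 (-3.42 ± 0.46) fell as well. With at most 5% mitochondrial UMIs Sema4a stood at -6.97 and Nrp1 at -4.24, and at a Leiden resolution of 1.5 Sema5a stood at -5.70. At that resolution a cluster led by Klk6 (179 and 537 cells) was left unnamed and was not in the oligodendrocyte-like class. Sema7a rose from 6.15 and 1.57 CPM to 21.9 and 28.9 CPM (3.45 ± 0.60, edgeR adjusted p = 0.00013), with 2.30 and 4.45 in single mice. The other member that rose, Plxnb1 (1.02 ± 0.27), lost the call with RLE scaling (0.77, adjusted p = 0.048 by edgeR), with DESeq2 and in 4 other alternative fits. Both comparisons with the committed precursor-like class rest on its 46 cells in mouse 1 and 144 in mouse 2, and mature oligodendrocyte transcripts were present in it as given above. Their part in the levels of this class was not tested.

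**Figure D4:**
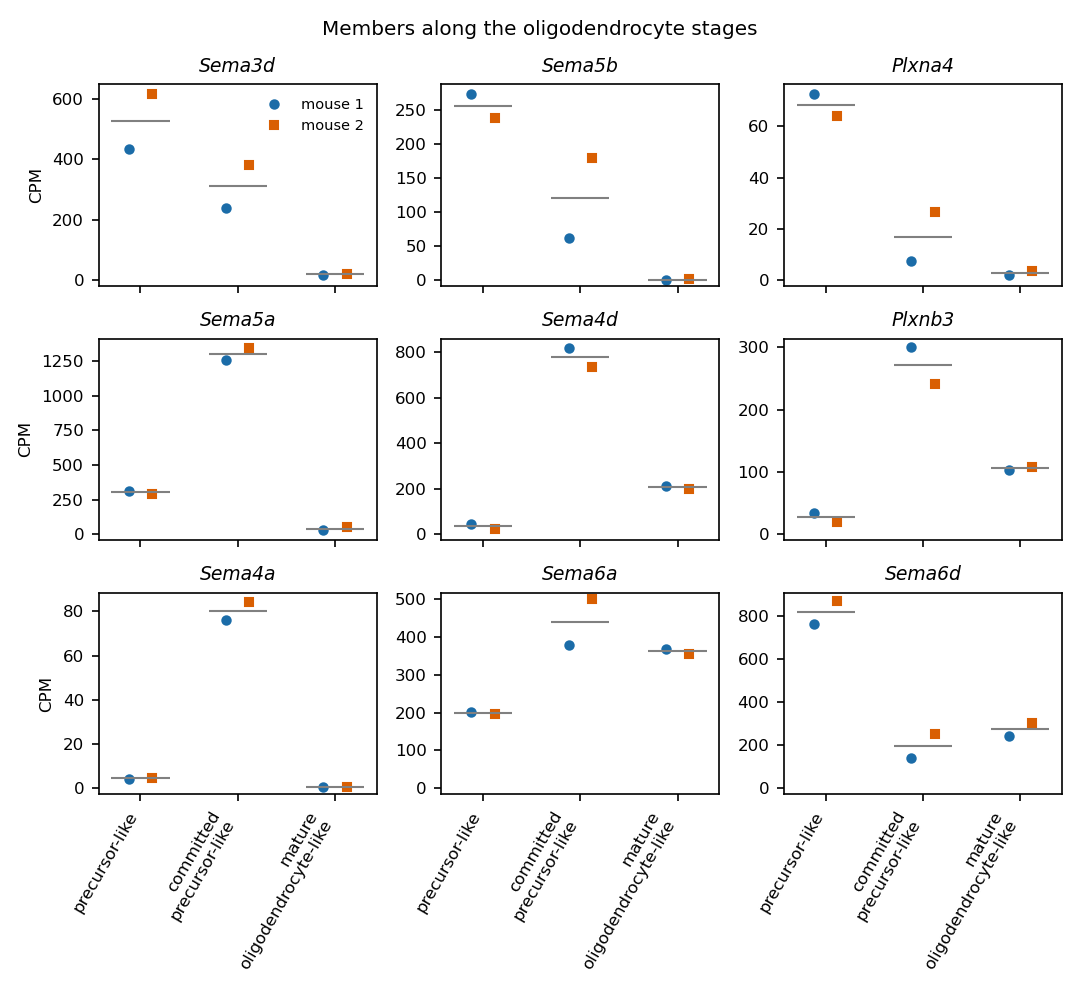
CPM of 9 members in precursor, committed precursor and oligodendrocyte cells, in that order, with 1 point per mouse and a grey line at the mean. Sema3d, Sema5b and Plxna4 start high and fall, Sema5a, Sema4a, Sema4d and Plxnb3 peak in the committed stage, and Sema6a stays high in the last 2 stages.

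Partner genes of the pathway were also tested over these stages. Of 36, 6 rose and 14 fell between precursor-like and oligodendrocyte-like cells, 8 rose and 7 fell at the first step, and 4 rose and 10 fell at the second. The shares called were 55.6%, 41.7% and 38.9% of the partners, against 36.9%, 23.5% and 24.2% of all genes. Dpysl3 (-7.19 ± 0.49) and Dpysl4 (-4.57 ± 0.49), collapsin response mediators downstream of Sema3a, and the neuropilin-binding adhesion molecule Nrcam (-5.89 ± 0.45) had the largest named falls over the whole lineage. Gipc1, a scaffold that binds the tail of neuropilins and plexins, rose at the first step (3.60 ± 0.24). Mical1, an oxidoreductase that acts on actin downstream of plexins, fell at the second (-6.46 ± 0.56).

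Mature oligodendrocyte-like cells fell into several clusters. A Klk6-high cluster and a Ptgds-high cluster are described here without a test. Sema5a was at 122 and 143 CPM in the Klk6-high and 11.4 and 14.2 CPM in the Ptgds-high cells. Sema6a went the other way, with 207 and 217 CPM and 409.6 and 426 CPM, as did Sema3d with 4.61 and 8.38 CPM and 24.2 and 37.5 CPM. Nrp2 was at 25.6 and 27.8 CPM in the Klk6-high and 10.2 and 10.9 CPM in the Ptgds-high cells. For all 4 genes both mice of one cluster lay above both mice of the other. The 4 were picked after their values were seen. How many other members, or genes at large, were separated in this way was not counted.

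Habenular neuron-like cells stood out by Nrp2 and Sema3e. Against glutamatergic neuron-like cells, 5 members were higher and 6 lower (20.4% of all genes called, member median -0.21, all-gene median -0.04). Nrp2 stood at 704 and 539 CPM against 7.34 and 9.28 CPM (log2 fold change 6.12 ± 0.46, edgeR adjusted p = 7.8e-09). Sema3e stood at 394 and 439 CPM against 38.2 and 36.7 CPM (3.35 ± 0.49, edgeR adjusted p = 2.4e-05). The co-receptor and the ligand were thus both high in both mice. Sema3d was called too (4.13 ± 0.76, edgeR adjusted p = 0.0003), but its 3.79 and 58.7 CPM against 0.787 and 1.83 CPM rests mainly on mouse 2, with a log2 difference of 1.91 in mouse 1 and 4.79 in mouse 2. In the pair of habenular clusters, 16 and 20, Sema3d was at 1.16 and 49.6 CPM and 9.25 and 87.3 CPM, so the gap between mice was present in each. With doublets kept the log2 fold change of Sema3d was 3.53. Sema4g was lower in habenular cells, with 4.18 and 8.99 CPM against 47.4 and 34.6 CPM (-2.82 ± 0.32, edgeR adjusted p = 1.1e-06), and Sema7a had 5.88 and 3.67 CPM against 51.6 and 19.7 CPM (-2.95 ± 0.49, edgeR adjusted p = 0.0001). Sema5b was at 0 and 0.483 CPM against 5.3 and 23.6 CPM (-5.70 ± 0.79, edgeR adjusted p = 1.3e-05), which rests on 0 and 5 habenular UMIs and was -4.14 with doublets kept. Single mice gave -4.94 and -5.22 for Sema5b and -3.58 and -2.00 for Sema4g. Of the partners 1 was higher and 6 were lower, among them the adhesion molecule L1cam (-3.53 ± 0.47) and the plexin-binding GTPase Rnd1 (-2.68 ± 0.58).

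Glutamatergic and GABAergic neuron-like cells differed in both neuropilins. In the comparison of these classes 6 members were higher and 2 lower in glutamatergic cells (12.1% of all genes called, member median 0.39, all-gene median 0.14). With RLE scaling or DESeq2 the split was 2 higher and 2 lower. Nrp2 was at 7.34 and 9.28 CPM in glutamatergic and 55.6 and 41.6 CPM in GABAergic cells (log2 fold change -2.24 ± 0.40, edgeR adjusted p = 0.00057). Nrp1 was at 28.6 and 12.1 CPM and 83 and 70.6 CPM (-1.69 ± 0.39, edgeR adjusted p = 0.0045). Plxnc1, the Sema7a receptor, was higher in glutamatergic cells, at 96.8 and 96.3 CPM against 37.5 and 46.4 CPM (1.54 ± 0.30, edgeR adjusted p = 0.0012). Sema5a (1.42 ± 0.44), Sema6b (1.30 ± 0.40) and Sema6a (1.10 ± 0.33) were called as well, yet all 3 lost the call with RLE scaling, with DESeq2 and without the mouse block, which also ended that of Nrp1. Single mice gave 2.18 and 0.64 for Sema5a and 1.58 and 0.46 for Sema6a. Both Sema5a (1.18, edgeR adjusted p = 0.12) and Sema6a (0.73, edgeR adjusted p = 0.29) also lost it when 4 neuron-like clusters with few of the neuron markers were left out, and Nrp1 stood at -2.29. In these clusters ribosomal protein genes made up 0.203% to 0.38% of UMIs, against 3.75% and 3.69% in the GABAergic class, which holds none of them, and 1.55% and 2.41% in the glutamatergic class. The largest of the 4 gave 70 and 734 of the glutamatergic cells, at 5.46% and 4.71% mitochondrial UMIs (class medians 3.82% and 2.6%). Habenular cluster 20 is another of the 4, and leaving all 4 out gave 12 called members in the habenular comparison and 18 between neuron-like and non-neuronal classes, against 11 and 20. The other 2 called members, higher in glutamatergic cells, were Plxnd1 (2.60 ± 0.60) and Sema4g (1.07 ± 0.31), of which Sema4g lost the call with RLE scaling (0.93, adjusted p = 0.044 by edgeR), with DESeq2 and without the mouse block. Plxnd1 had the largest fold of the called members but did not pass the naming rule. That rule asks for 10 CPM or more on the higher side and the same direction in each mouse. Partners gave 5 higher and 2 lower, including the collapsin response mediator Dpysl4 (-1.93 ± 0.42) among the lower ones.

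Within glutamatergic neuron-like cells, clusters high in Tnnt1 and in Necab1 were compared. Here 3 members were higher and 5 lower in the Tnnt1-high cells (6.27% of the 17433 genes tested were called, member median 0.04, all-gene median 0.09). Sema6a stood at 249.7 and 230.3 CPM in Tnnt1-high and 67 and 27.3 CPM in Necab1-high cells (log2 fold change 2.59 ± 0.43, edgeR adjusted p = 0.00027). Sema5b was the opposite, at 0.321 and 4.71 CPM and 38.7 and 34.1 CPM (-3.80 ± 0.73, edgeR adjusted p = 0.0014). Class 6 ligands moved apart, since Sema6d was lower in Tnnt1-high cells with 145 and 147 CPM against 341 and 396 CPM (-1.17 ± 0.31, edgeR adjusted p = 0.018). Single mice gave -5.80 and -2.74 for Sema5b, and at a Leiden resolution of 1.5 it stood at -4.58. Nrp1 (2.36 ± 0.48) and Sema7a (1.89 ± 0.42) were higher and Sema3c (-2.40 ± 0.66) lower. In single mice Nrp1 stood at 1.38 and 2.93 and Sema3c at -1.79 and -3.02. The call of Sema3c was lost without the low-count filter, with doublets kept and without the mouse block, and that of Sema6d without the block and at a Leiden resolution of 1.5. The Necab1-high cells of mouse 1 numbered 23. Of 36 partners, 2 were higher and 1 lower.

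Set against all non-neuronal classes, neuron-like classes were higher for 15 members and lower for 5 (38.5% of all genes called, member median 0.93, all-gene median 0.02). This and the comparisons against all other classes average log levels over classes, so classes near 0 weigh heavily. With at most 5% mitochondrial UMIs the smooth muscle-like class had too few cells and left these averages. Values under that limit therefore rest on another set of classes. Sema4a, Sema5a and Sema7a were called in the direction opposite to their arithmetic mean CPM, and Sema4a and Sema7a lost the call with at most 5% mitochondrial UMIs (0.19, adjusted p = 0.43, and 0.63, adjusted p = 0.032, by edgeR). Sema4a also lost it with DESeq2, Sema7a with doublets kept, and both at a Leiden resolution of 0.5. Without the neuron-like clusters with few neuron markers Sema7a and Sema6d lost it. The mitochondrial limit also ended the calls of Sema6d, Plxna4 and Plxnb2. Nrp1 lost its call with RLE scaling, with DESeq2, without the low-count filter and at a Leiden resolution of 1.5. For Plxna2 (1.89 ± 0.16) the mean CPM of the mice overlapped, at 73.6 and 98.1 against 55.2 and 82. Sema3e stood at 121 and 132 CPM against 12.5 and 16.3 CPM (log2 fold change 3.34 ± 0.25, edgeR adjusted p = 1.4e-10). Plxnc1 stood at 85.2 and 109 CPM against 23.3 and 31.2 CPM (3.28 ± 0.14, edgeR adjusted p = 2.4e-14). The weakly expressed Sema4f had 14.6 and 17 CPM against 3.49 and 4.05 CPM (4.89 ± 0.37, edgeR adjusted p = 7.2e-10), a fold that was 4.08 with DESeq2, 3.84 with at most 5% mitochondrial UMIs, 4.13 with doublets kept and 3.98 and 3.39 in single mice. Sema3e stood at 2.65 under the same mitochondrial limit. Plxnb1 was lower in neurons (-2.16 ± 0.17, edgeR adjusted p = 3e-10). Among partners 9 were higher and 9 lower, led by Dpysl5 (4.37 ± 0.22) and Dpysl4 (4.34 ± 0.33) on one side and Mical1 (-4.45 ± 0.29) on the other. The higher call of Mical2 was opposite to its arithmetic mean CPM.

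Astrocyte-like cells were higher in the ligands Sema4a, Sema4b and Sema6d and in Plxnb1 than the average of the other classes. Against the other classes 7 members were higher and 10 lower (33.7% of all genes called, member median -0.52, all-gene median 0.10). Sema4b stood at 87.4 and 72.4 CPM against 9.55 and 6.32 CPM (log2 fold change 4.12 ± 0.20, edgeR adjusted p = 4.5e-13). Sema4a stood at 97 and 74.3 CPM against 17.3 and 19.4 CPM (4.23 ± 0.26, edgeR adjusted p = 3.1e-11), and Sema6d at 738 and 859 CPM against 235 and 272 CPM (2.46 ± 0.15, edgeR adjusted p = 1.4e-11). For each of these genes both astrocyte-like values lay above both means over the other classes. Single classes came level, though. Precursor-like cells held Sema6d at 762 and 869 CPM, and committed precursor-like cells held Sema4a at 76 and 84.3 CPM. Border macrophage-like cells held Sema4a at a mean of 77.1 CPM. Plxnb1, the receptor of Sema4d, was at 65.3 and 69.4 CPM against 17.4 and 21.9 CPM (2.95 ± 0.16, edgeR adjusted p = 1.6e-12). Its mean of 67.3 CPM was level with 69.6 CPM in smooth muscle-like and 65.0 CPM in pericyte-like cells. Sema5b was called higher (2.98 ± 0.37), although its mean CPM was lower in astrocyte-like cells, at 22.1 and 20.5 against 27.9 and 37.5. Sema5a was lower (-3.96 ± 0.46, or -2.88 with doublets kept). Single mice gave 4.33 and 3.29 for Sema4a and 3.76 and 2.23 for Sema5b, and Sema4a stood at 3.43 with at most 5% mitochondrial UMIs. Partners gave 9 higher and 11 lower, with the L1-family adhesion molecules Chl1 (5.27 ± 0.18) and Nrcam (4.57 ± 0.19) among the higher ones. The higher call of Fyn was opposite to its arithmetic mean CPM.

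Microglia-like cells were led by the receptors Plxna4 and Plxnb2. Against the other classes 8 members were higher and 13 lower (36.4% of all genes called, member median -1.18, all-gene median -0.0025). Plxna4 stood at 517 and 672 CPM against 75 and 99.6 CPM (log2 fold change 4.17 ± 0.22, edgeR adjusted p = 1.2e-12). Plxnb2 stood at 143 and 166 CPM against 32.4 and 36.3 CPM (3.37 ± 0.14, edgeR adjusted p = 1.7e-14). Plxna2 (-4.29 ± 0.44), Plxnd1 (-3.55 ± 0.57), Sema5a (-3.92 ± 0.46) and Sema6d (-3.14 ± 0.25) were lower. With doublets kept Plxna2 stood at -2.44 and Plxnd1 at -1.65, and single mice gave -4.52 and -3.68 for Plxna2. The microglial clusters divided by mouse: cluster 7 held 744 and 8 cells, and cluster 11, led by Il1a, Ccl4, Tnf and Ccl3, held 82 and 505. For Plxna4 and Plxnb2 both mice were nonetheless high. The part of this cluster in the results was not tested. Partners were 10 higher and 10 lower, with Tyrobp (9.02 ± 0.31) and Trem2 (8.47 ± 0.26), an adaptor and receptor pair known to join plexin-A1 signalling in myeloid cells, and the plexin-binding kinase Fes (5.34 ± 0.27) highest by fold. Plxna1 itself was among the 13 members called lower in microglia-like cells. The partners Kdr and Mical1 were called higher in the direction opposite to their arithmetic mean CPM.

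Border macrophage-like cells, the other myeloid class, differed from microglia-like cells in 10 members. Against them, 4 members were higher and 6 lower in microglia-like cells (12.6% of all genes called, member median -0.31, all-gene median 0.19). Plxnd1 was at 0.536 and 0.399 CPM in microglia-like and 21 and 58 CPM in border macrophage-like cells (log2 fold change -5.90 ± 0.65, edgeR adjusted p = 1.8e-06). Plxnc1 was at 2.15 and 4.39 CPM and 74.7 and 152 CPM (-4.92 ± 0.38, edgeR adjusted p = 2.1e-08), and Sema4a at 3.67 and 11.2 CPM and 80.6 and 73.6 CPM (-3.34 ± 0.44, edgeR adjusted p = 2.1e-05). These 3 were thus low in microglia-like cells of both mice. Plxna1 (-2.61 ± 0.57), Sema6d (-2.08 ± 0.29) and Nrp1 (-1.61 ± 0.38) were also lower in microglia-like cells, while Plxna4 (1.77 ± 0.44), Sema4d (2.07 ± 0.34) and Sema4c (2.09 ± 0.41) were higher. Single mice gave -4.82 and -6.46 for Plxnd1, -4.30 and -2.41 for Sema4a, -1.80 and -3.38 for Plxna1 and 1.79 and 2.77 for Sema4c. With doublets kept Plxnd1 stood at -3.75. Sema4g was higher on 3 border macrophage-like UMIs, with a pooled ratio of 13.3 (95% counting interval 4.51 to 64.9). Partners were 4 higher and 3 lower. The integrin Itga1 was lower in microglia-like cells (-2.32 ± 0.64, edgeR adjusted p = 0.016), but not with doublets kept (0.10, edgeR adjusted p = 0.97).

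Endothelial-like cells were higher in several ligands and receptors than the average of the other classes. Against the other classes 10 members were higher and 12 lower (28.8% of all genes called, member median -1.13, all-gene median -0.07). Sema3c stood at 983 and 1142 CPM against 5.49 and 11.1 CPM (log2 fold change 7.64 ± 0.27, edgeR adjusted p = 2.4e-15). Sema3g stood at 78.5 and 76.3 CPM against 0.567 and 0.959 CPM (7.68 ± 0.34, edgeR adjusted p = 2.6e-13), and Sema7a at 319 and 314 CPM against 16.2 and 11.3 CPM (5.32 ± 0.24, edgeR adjusted p = 9.1e-14). The ligands were joined by receptors. Plxna2 was at 284 and 488 CPM against 43.3 and 55.7 CPM (4.09 ± 0.19, edgeR adjusted p = 2e-13), and Plxnd1 at 91.6 and 63.6 CPM against 12.2 and 16.5 CPM (4.05 ± 0.23, edgeR adjusted p = 6.1e-12). Both mice of the endothelial-like class lay above both means over the other classes for all 5. These 5 also had their highest class there, while the other members called higher had it elsewhere. Plxnd1 in mouse 2 was nearly as high in smooth muscle-like cells. For Plxnd1 single mice gave 4.46 and 3.39, and its value with at most 5% mitochondrial UMIs was 4.76. Under that limit the smooth muscle-like class, the next highest for Plxnd1, was not among the other classes. Sema5b was lower on 3 endothelial-like UMIs, and lost the call when cells were held to at most 5% mitochondrial UMIs. Partners were 10 higher and 8 lower, with Kdr, the main vascular endothelial growth factor receptor and a partner of neuropilins, at 7.53 ± 0.21 and the integrin Itga1 at 5.73 ± 0.21.

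Endothelial-like and mural-like cells, the pericytes and smooth muscle that wrap the vessel, divided the family between them. Of 30 members 10 were higher and 9 lower in endothelial-like cells (22.4% of all genes called, member median 0.40, all-gene median 0.06). Plxnb2 was on the mural side, with 4.67 and 5.53 CPM in endothelial-like and 72.7 and 88.7 CPM in mural-like cells (log2 fold change -3.90 ± 0.30, edgeR adjusted p = 3e-09), as was Sema6c (-3.77 ± 0.48). Sema3c (7.39 ± 0.58), Sema7a (6.01 ± 0.46) and Plxna2 (4.19 ± 0.32) were on the endothelial side, Sema3c at 6.30 with doublets kept. Single mice gave -3.15 and -4.31 for Sema6c. Sema3g had 1 UMI in mural-like cells, and its pooled ratio was 509 (95% counting interval 91.2 to 20123). The 7 pericyte markers summed to 1254 and 2008 CPM in endothelial-like and 29742 and 25268 CPM in pericyte-like cells. Their part in these differences was not tested. Partners were 2 higher and 6 lower, including Mical2 (-4.74 ± 0.52) on the mural side.

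**Figure D5:**
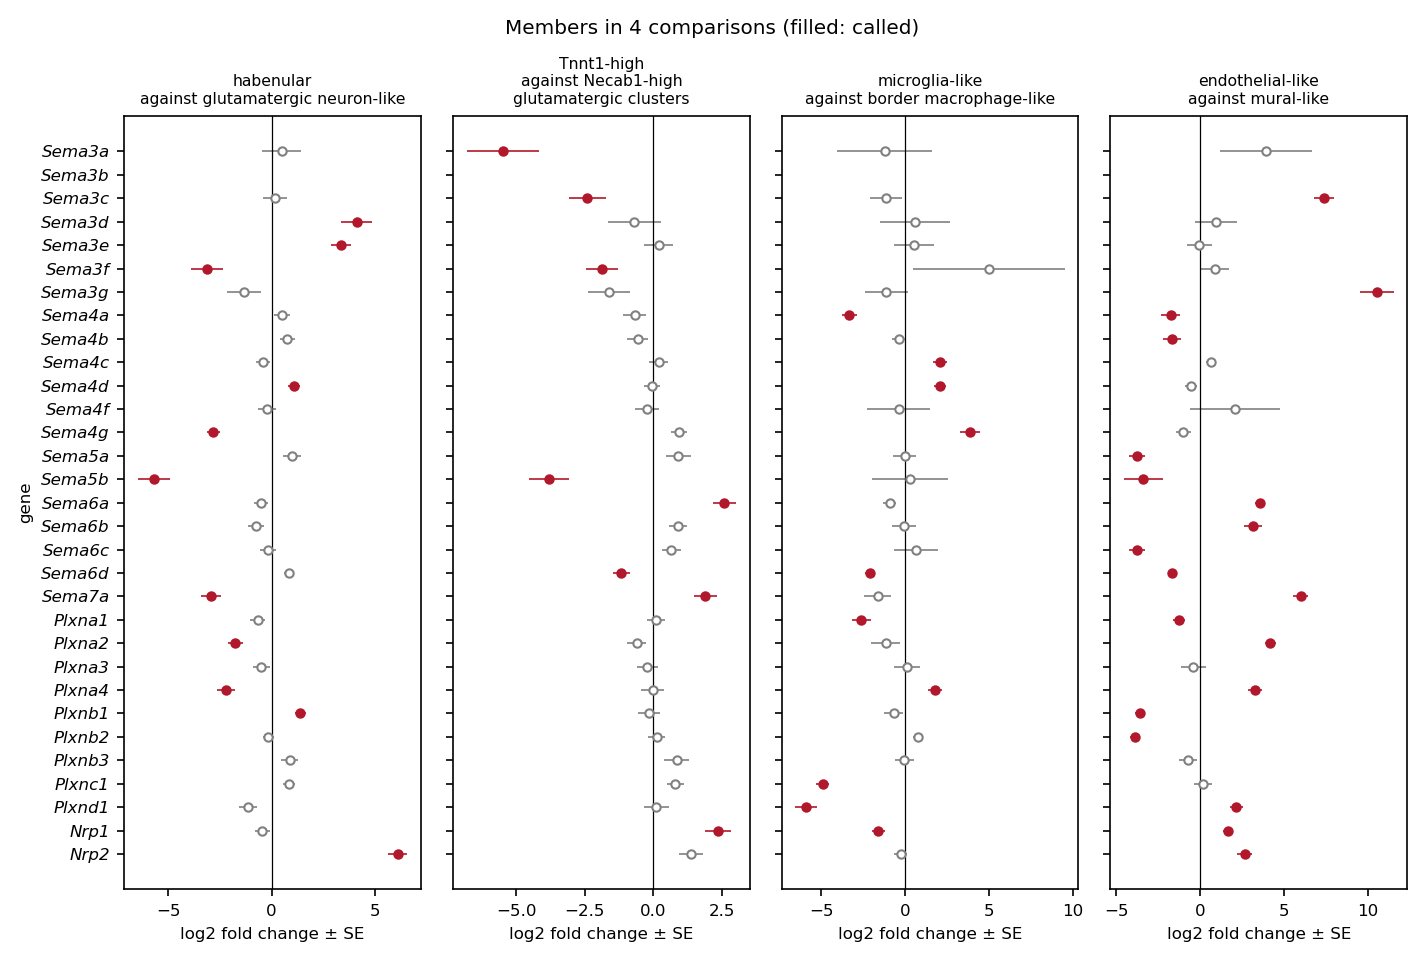
Log2 fold change of each tested member in 4 comparisons (habenular against glutamatergic neurons, Tnnt1-high against Necab1-high clusters, microglia against border macrophages, endothelial against mural cells), with bars for the standard error of the edgeR fit and filled points for called members. Nrp2 lies farthest right in the first panel and Plxnd1 farthest left in the third, while Sema3g in the fourth rests on 1 mural-like UMI.

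Arterial-like cells differed from other endothelial-like cells in 1 called member. Sema3f stood at 9.7 and 13.5 CPM in arterial-like cells, on 36 and 2 UMIs, and 0.716 and 0.839 CPM in the others, on 5 and 2 UMIs (log2 fold change 3.77 ± 0.77, edgeR adjusted p = 0.0098). It was the only member called there, beside 0.837% of all genes, with a member median of -0.22 (-0.02 with genes at 0 set to their bound) and an all-gene median of -0.03. Sema3g was at 170.0 and 304 CPM in arterial-like and 29.9 and 62.1 CPM in other endothelial-like cells, which did not pass the test (2.25 ± 0.57, edgeR adjusted p = 0.058). Arterial-like cells numbered 163 and 23. Of the 444 other cells of mouse 2, 401 were in 1 sub-cluster (8 cells in mouse 1) in which Gkn3, an arterial marker, stood at 101 CPM, against 389 CPM in the arterial-like cells. With doublets kept Sema3f lost the call, and there the arterial-like group also took in a sub-cluster of 265 and 24 cells with Gkn3 at 4.38 CPM (3.17, edgeR adjusted p = 0.096).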

How the data were processed

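Each deposited matrix holds the untransformed UMI counts of 1 thalamus library, and there is 1 per mouse. The authors made these counts with Cell Ranger 7.1.0 per the file headers. The submitters' processing notes also name mm10 and Seurat 5 without a role. Reads were not processed here.

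Barcodes needed at least 500 genes, 1000 UMIs and at most 15% mitochondrial UMIs. Predicted doublets (181 and 261 cells, 2.84% and 2.77%) were removed. Cells were scaled to 10000 counts and clustered (Python 3.11.15, scanpy 1.11.5, leidenalg 0.10.2) on 2000 variable genes, with the members and partners held out, 30 principal components, 15 neighbours and a Leiden resolution of 1, which gave 34 clusters. A cluster was named from at least 3 detected markers, and clusters without a clear name (476 and 288 cells) entered no class. Unnamed cluster 15 (195 and 166 cells) held both endothelial and pericyte markers.

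Counts were added up by class and mouse, and a class needed 20 or more cells from both animals separately. edgeR 4.0.16 (R 4.3.3, limma 3.58.1, quasi-likelihood, TMM scaling, low-count filter) was fitted on 28 sums of 14 classes, with the mouse as block, 17232 genes and 13 residual degrees of freedom. A finer fit held 40 sums of 20 classes. Differences per mouse used a prior count of 2. Pooled ratios, used where a group had 3 or fewer UMIs, have exact 95% intervals that cover counting error only. The fit was tested on simulated data. Of called members at 10 CPM or more on the higher side that moved the same way in each mouse, up to 6 with the largest change per comparison were named, and up to 3 of 36 partner genes, beside each member's highest class. Other members were named after their values were seen. The members and lists were chosen with earlier results of these data known. Gene coordinates are those of GRCm38 and promoter windows those of RefSeq. Of 14 planned comparisons 13 were run. Alternatives were RLE scaling, DESeq2 1.42.0, no count filter, no mouse block, stricter mitochondrial filtering, doublets kept, other Leiden resolutions, each mouse alone and thinning to 1000 UMIs.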

Additional observations from a re-analysis of the deposited data

How the results depend on the processing

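Of 107 results named by the rule in 13 comparisons, 95 stayed past the threshold in every alternative fit that gave a value. Glutamatergic against GABAergic neuron-like cells had 8 members called in the first fit, 4 with RLE scaling, 4 with DESeq2, 3 without the replicate block, and 5 to 8 in single mice. Tnnt1-high against Necab1-high cells went from 8 to 4 called members without the replicate block. Leaving out the block ended the call of 9 named results; it moved no other count of called members by over 1.5 times. Arterial-like against other endothelial-like cells gave 2 calls with at most 5% mitochondrial UMIs and 0 by edgeR with doublets kept, where the adjusted p of Sema3f was 0.096. Itga1, lower in microglia-like than in border macrophage-like cells, reversed to 0.10 with doublets kept. The median share of cells with a UMI in a member's highest class, 34.2% at 3000 UMIs, was 13.6% at 1000. RLE and DESeq2 moved the all-gene median by up to -0.25 and -0.32 (oligodendrocyte-like against committed precursor-like), where the share of higher calls among all genes went from 47.5% to 36.4% and 34.8%. With DESeq2 it went from 59.6% to 47.2% for microglia-like, from 63.7% to 53.4% for astrocyte-like, from 55.4% to 44.5% for endothelial-like cells and from 61.0% to 50.7% for glutamatergic against GABAergic cells. The highest class changed for 5 members under the stricter mitochondrial filter, 4 in either mouse alone, and 1 each with doublets kept and at a Leiden resolution of 0.5. With the stricter filter smooth muscle-like cells were too few to form a class, and Sema3f and Plxnb1 had been highest there. For these genes the next class then led. Sema3a and Sema3b had been highest in fibroblast-like cells, whose 21 cells in mouse 1 were near the minimum of 20. Leaving out 4 neuron-like clusters with few neuron markers, chosen after seeing the data, ended 2 named calls. Resolution 0.5 gave no GABAergic, Tnnt1/Necab1 or arterial comparison, doublets kept none for glutamatergic against GABAergic cells, and the stricter mitochondrial filter none for endothelial-like against mural-like cells. A comparison of Tac1-high with Tac2-high habenular cells was not run, since both genes peaked in the same cluster. Leaving out clusters of low depth tested nothing, since these clusters were in no class. The 2 mice limit every p-value, and at 10 CPM or less a class of few cells holds few UMIs.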
